A study of Homo sapiens with 8 samples.

Results

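The comparison described here is of HL60 cells treated with DZNep alone for 72 h against HL60 cells given phosphate-buffered saline (PBS) for the same time. It rests on 4 of the 8 libraries of the series, 2 with DZNep and 2 with PBS, chosen by their treatment labels and read across all 9543 genes of the expression table. HL60 is a human promyelocytic leukaemia line grown in suspension, here in RPMI medium with 10% FBS. The other 4 libraries are of cells treated for 72 h with VC (vitamin C) or with VC and DZNep, 2 libraries each. They enter below as a second setting for DZNep. They also add to the estimate of spread behind the standard errors and p-values, because all 8 libraries were fitted together. RNA was taken up in Trizol and sequenced from TruSeq libraries made from total RNA. The labels give no dose of DZNep. They do not say whether replicate libraries were grown as separate cultures, so p-values measure only the spread between these libraries, which may be technical. All results are of 1 cell line.

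DZNep (3-deazaneplanocin A) is an adenosine analogue that inhibits S-adenosylhomocysteine hydrolase, the enzyme AHCY, which clears the by-product of every methyl transfer from S-adenosylmethionine. When that by-product accumulates, methyltransferases that act on histones, DNA and RNA are inhibited, and DZNep is known for lowering the protein of EZH2, the methyltransferase of Polycomb repressive complex 2, in leukaemia cells. HL60 cells resemble promyelocytes, the granulocyte precursors that fill with primary granules, and can mature towards neutrophils, monocytes or eosinophils under different agents.

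The table gives each gene 1 normalized whole number in each library. All 8 libraries hold the same sorted values, from 2 to 10345 with a median of 88, so the read depth is unknown, a shift shared by most genes would not be seen, and different genes are not compared as abundances. At the upper end the scale is coarse: 270 genes per library lie above 1000 and share 67 distinct values, so several genes below show identical values in replicate libraries. Changes are log2 fold changes of log2(value + 1) with a standard error (SE), which understate the change of genes with low values, and a gene was called when limma's two-sided adjusted p (Benjamini-Hochberg over 9513 genes) was under 0.05. In the words used here, a gene rose or fell only if it was called. The Spearman correlation of all values was 0.98 between the PBS libraries, 0.98 between the DZNep libraries and 0.96 in each pair of a PBS and a DZNep library, as a description over genes. In bulk samples fewer cells of a type and less RNA per cell cannot be told apart.

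The label of a promyelocyte line was checked on its markers. MPO, myeloperoxidase, had values of 3652 and 2726 with PBS and 3652 and 3652 with DZNep. SPI1, the myeloid transcription factor PU.1, had 652 and 670 with PBS and 844 and 741 with DZNep. CD33, a myeloid surface antigen, had 274 and 282 with PBS and 318 and 326 with DZNep; none of the 3 was called, though MPO was without PBS replicate 1 (limma adjusted p = 0.0346). CTSG, the granule protease cathepsin G, had 30 and 27 with PBS and 10 and 14 with DZNep. MS4A3 had 20 and 19 with PBS and 18 and 8 with DZNep. ELANE, PRTN3, AZU1 and PRSS57 are not analysed here. Among lists of other cell types, 3 of 21 erythroid and megakaryocyte genes were measured, with summed values of 500 and 409 in PBS and 768 and 668 in DZNep libraries, most of it ITGA2B. For lymphoid genes 3 of 18 were measured, summing to 37 and 33 with PBS and to 50 and 60 with DZNep, and of adherent and endothelial genes 1 of 14, PECAM1, had 33 and 26 with PBS and 40 and 37 with DZNep. No value in the table is 0, and the markers of these lists that were not measured are not analysed here.

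DZNep changed 1242 genes, 13.1% of those tested: 611 rose (6.42%) and 631 fell (6.63%). In 251 genes (2.64%) the change was at least 2-fold, with 105 higher (1.1%) and 146 lower (1.53%). Most calls were of modest size: 226 of the genes that rose changed by less than 1.5-fold and 280 by 1.5 to 2-fold, and the median was 1.58-fold for genes that rose and 1.62-fold for genes that fell. Only 11 genes rose and 16 fell by 4-fold or more. In all 1242 called genes both DZNep libraries lay beyond both PBS libraries, whereas over all genes tested this was so for 26.8% on the higher and 25.4% on the lower side. The count depends on single libraries: it was 730 without PBS replicate 1, 792 without PBS replicate 2, 538 without DZNep replicate 1 and 439 without DZNep replicate 2. It was 454 when the 4 libraries were fitted alone, and 739 without the intensity trend in the variance.

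**Figure D1:**
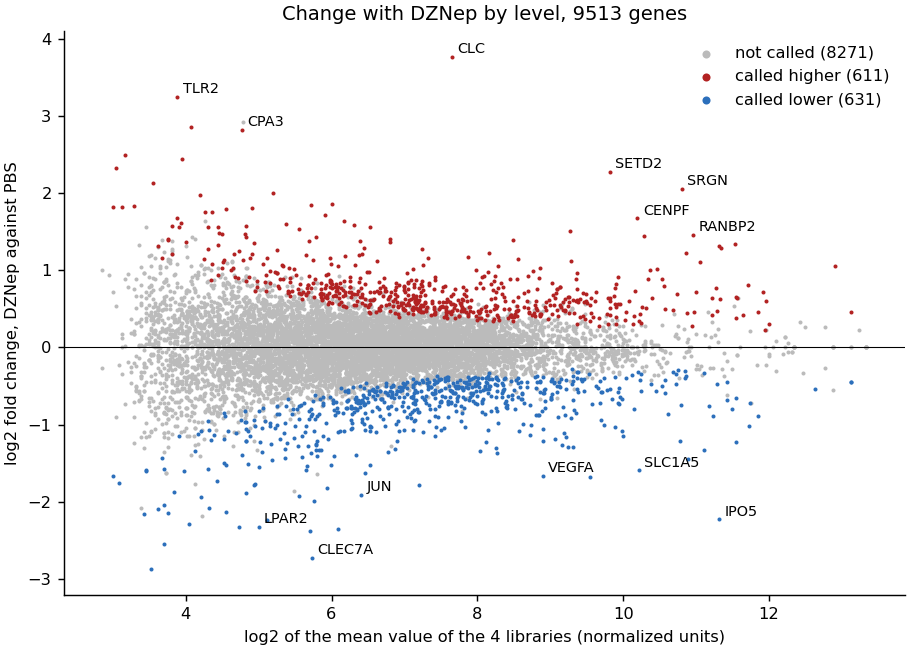
Change of each of 9513 genes with DZNep (y axis, log2 fold change against PBS) against its mean value over the 4 libraries (x axis, log2 of normalized units). The 611 genes called higher are red, the 631 called lower blue and the others grey, and called genes occur over the whole range of values.

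The gene with the largest increase was CLC, which encodes galectin-10, the protein of the Charcot-Leyden crystals seen where eosinophils gather (chr19:39731250-39738028 on GRCh38). Its values were 32 and 22 with PBS and 362 and 386 with DZNep, a log2 fold change of 3.77 ± 0.30 (SE, limma adjusted p = 9.26e-05), or 13.6-fold. SETD2, the methyltransferase that places trimethyl marks on lysine 36 of histone H3 along transcribed genes (chr3:47016429-47163967), had 296 and 320 with PBS and 1548 and 1443 with DZNep. Its change of 2.28 ± 0.10 (SE, limma adjusted p = 2.74e-06) was 4.84-fold and had the smallest p of all genes. SRGN, serglycin, the proteoglycan core that packs proteases into granules, rose from 596 and 764 to 2166 and 3646, by 2.06 ± 0.20 on the log2 scale. In these 3 genes the DZNep libraries were far above both PBS libraries, and the replicates of SRGN were the least alike.

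The other large increases included RNASE2, the eosinophil-derived neurotoxin (36 and 20 with PBS and 92 and 108 with DZNep), S100A9, a calprotectin subunit (34 and 35 with PBS and 117 and 102 with DZNep), and LYZ, lysozyme (26 and 33 with PBS and 84 and 78 with DZNep). Their log2 fold changes were 1.85, 1.64 and 1.44. SIGLEC6, a sialic acid binding receptor, changed by 1.56, FCGR2B, an inhibitory Fc receptor, by 1.54, ADGRE1, an adhesion G protein-coupled receptor of eosinophils, by 1.40, and CYBB, the catalytic subunit of the phagocyte NADPH oxidase, by 1.40. EMILIN2, an extracellular matrix glycoprotein, had 27 and 28 with PBS and 90 and 96 with DZNep. The same ranking held CENPF, a kinetochore protein (548 and 571 with PBS and 1749 and 1826 with DZNep), and RANBP2, the cytoplasmic filament nucleoporin (918 and 1216 with PBS and 2724 and 3112 with DZNep). CENPF changed by 1.67 ± 0.10 (SE, limma adjusted p = 2.03e-05) and was high in every DZNep library by a margin many times the difference between replicates.

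**Figure D2:**
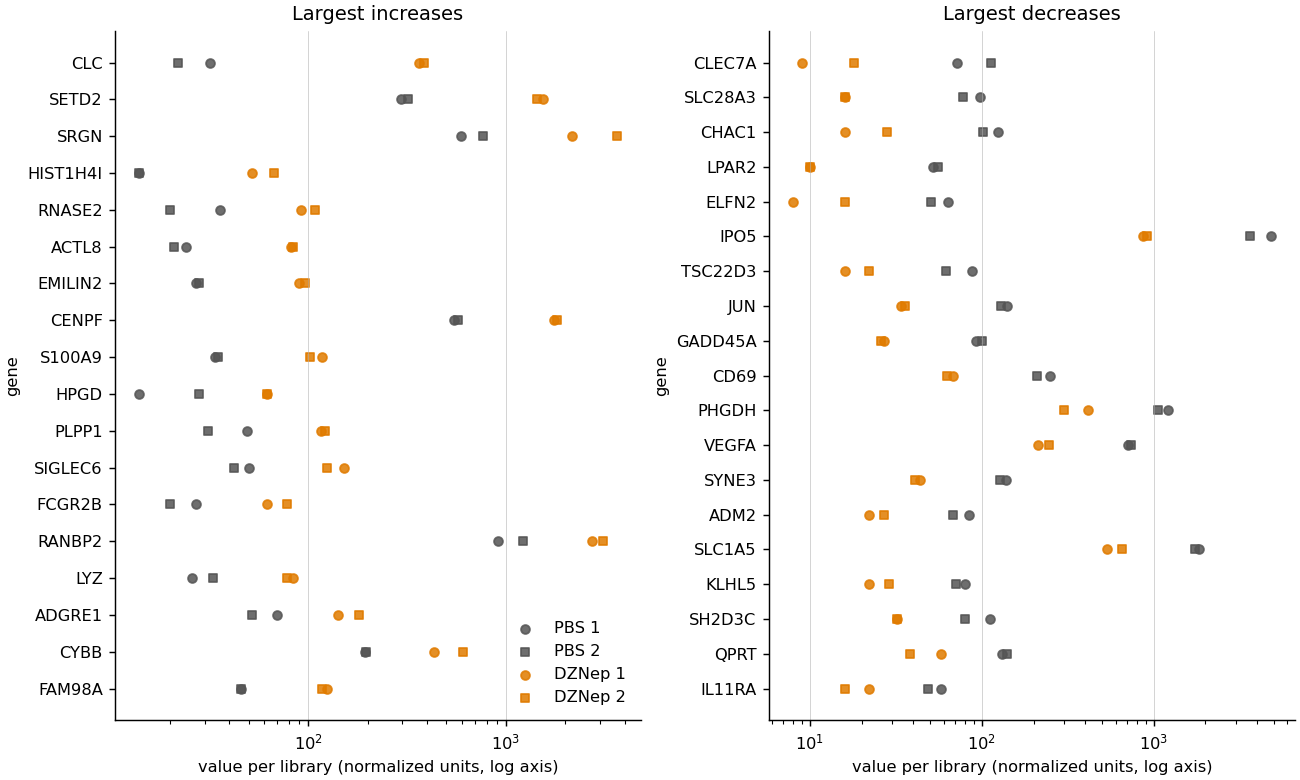
Values in each of the 4 libraries (x axis, normalized units, log axis) for 18 of the 20 genes with the largest increase and 19 of the 20 with the largest decrease among called genes whose higher group averaged 50 or more. Grey points are PBS and orange points DZNep, circles replicate 1 and squares replicate 2. In every row both DZNep points lie beyond both PBS points because the ranking required it.

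Genes whose higher group averaged under 50 are outside that ranking, and some of them changed more than all but CLC within it. TLR2, the Toll-like receptor for bacterial lipoproteins, was listed at 2 and 2 with PBS and 27 and 28 with DZNep. CPA3, the mast cell carboxypeptidase, was listed at 6 and 6 with PBS and 47 and 50 with DZNep. The lowest value in the table is 2, so the size of these folds depends on the pseudocount, and the values per library are the plainer measure. Both were called, with limma adjusted p-values of 0.00159 and 0.000431.

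Under the same bound the largest decrease was that of CLEC7A, dectin-1, the receptor for fungal beta-glucan (chr12:10116777-10130258), with 72 and 113 with PBS and 9 and 18 with DZNep and a log2 fold change of -2.73 ± 0.31 (SE, limma adjusted p = 0.000497). SLC28A3, a concentrative nucleoside transporter, fell from 98 and 78 to 16 and 16. SLC29A1, the equilibrative transporter of nucleosides, had 405 and 387 with PBS and 412 and 432 with DZNep and was not called. LPAR2, a receptor of lysophosphatidic acid, had 52 and 56 with PBS and 10 and 10 with DZNep. ELFN2, a regulator of protein phosphatase 1, had 64 and 51 with PBS and 8 and 16 with DZNep. IPO5, the nuclear import receptor importin-5 (chr13:97953658-98024297), had 4795 and 3648 with PBS and 870 and 918 with DZNep, a 4.68-fold decrease (log2 -2.23 ± 0.14, SE, limma adjusted p = 2.03e-05).

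Further large decreases were in VEGFA, the vascular growth factor, and in CD69, an early activation antigen. VEGFA had 707 and 741 with PBS and 212 and 246 with DZNep. CD69 had 248 and 210 with PBS and 68 and 63 with DZNep. SYNE3, nesprin-3, had 138 and 128 with PBS and 44 and 41 with DZNep. QPRT, an enzyme of NAD synthesis, had 132 and 141 with PBS and 58 and 38 with DZNep. KLHL5 changed by -1.54 on the log2 scale and SH2D3C, an adaptor protein, by -1.53. The 20 largest decreases also held 7 genes taken up with their groups below, namely CHAC1, ADM2, PHGDH and SLC1A5 of the amino acid response, JUN and TSC22D3 of the immediate early list and GADD45A of the growth arrest list.

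Among 79 gene lists holding 2693 of the tested genes, 51 had a larger share of called genes than the 13.1% of all genes. The lists account for 418 of the 1242 calls, and 824 called genes were in none. In 66 of the 79 lists the number called moved by more than 1.5 times when a PBS or DZNep library was left out. For that reason the counts without PBS replicate 1, PBS replicate 2, DZNep replicate 1 and DZNep replicate 2, in this order, follow the counts that they move. Medians are set against the median of 0.01 over all genes. Lists share some members, and a shared gene is counted in each list that holds it.

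**Figure D3:**
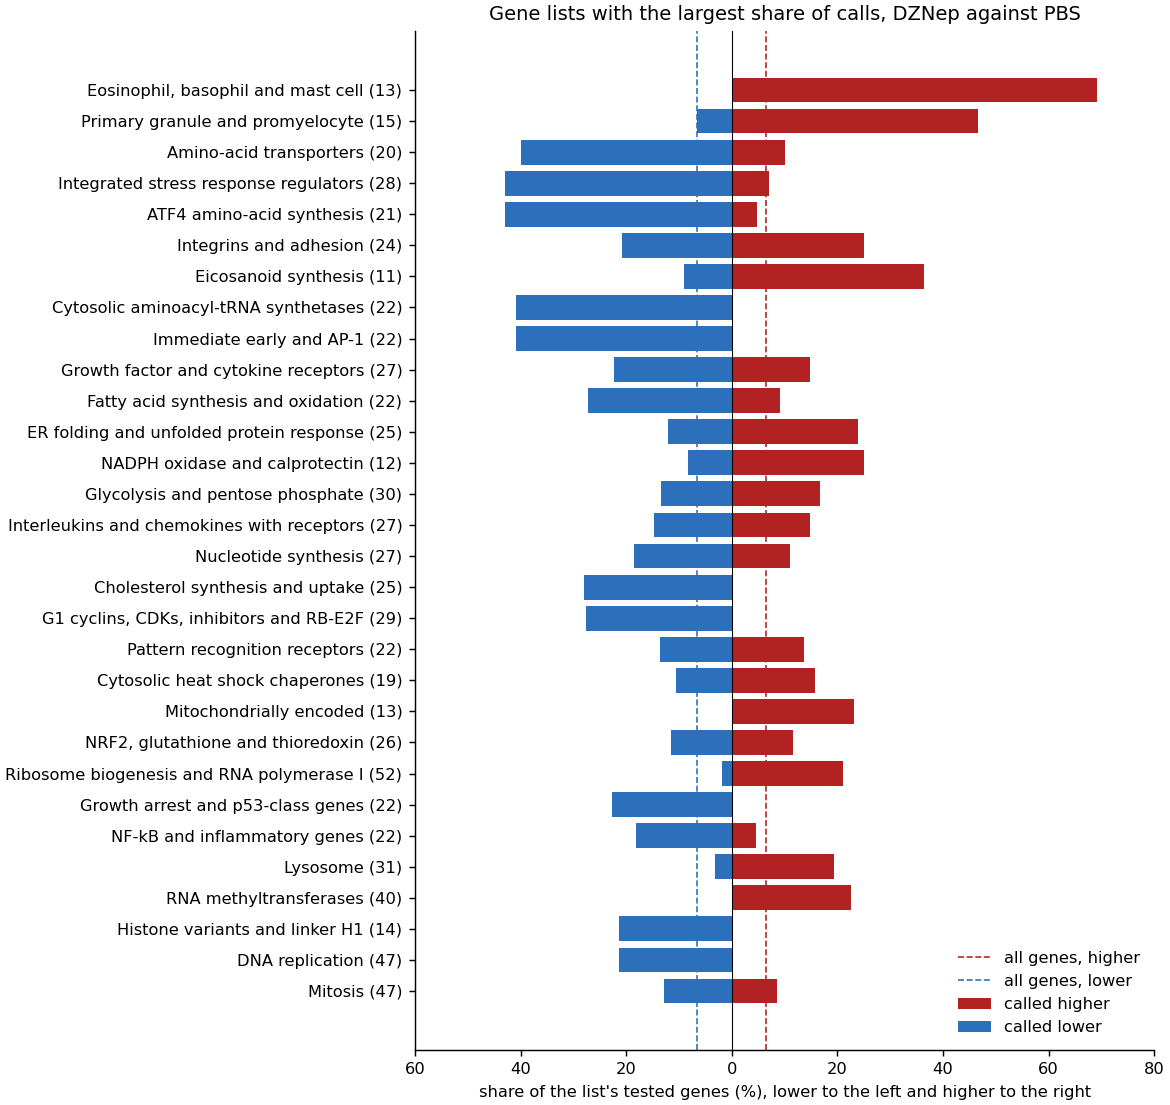
Share of each list's tested genes called lower (blue, to the left) or higher (red, to the right) with DZNep, in percent, for the 30 lists of at least 10 genes with the largest share called; list sizes are in brackets and dashed lines mark 6.42% higher and 6.63% lower over all genes. The lists of amino acid supply extend to the left and those of eosinophil and granule genes to the right.

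Genes of amino acid supply fell more often than they rose. Cells that lack an amino acid, or whose ER is loaded with unfolded protein, phosphorylate the initiation factor eIF2. This raises translation of the transcription factor ATF4, which in turn drives enzymes, transporters and tRNA synthetases of amino acid metabolism. The list of synthesis enzymes used here was drawn up around ATF4 and also holds linked enzymes, such as PCK2 and MTHFD2. Of 21 enzymes of amino acid synthesis tested, 9 fell and 1 rose, with a median of -0.22; the counts that fell were 8, 6, 6 and 7 with each library left out. PHGDH, the first enzyme of serine synthesis, had 1215 and 1057 with PBS and 416 and 301 with DZNep (log2 -1.68 ± 0.17, SE, limma adjusted p = 0.000319). PSAT1, the next enzyme of that path, had 742 and 752 with PBS and 320 and 335 with DZNep. ASNS, asparagine synthetase, had 638 and 660 with PBS and 322 and 299 with DZNep. PCK2, the mitochondrial phosphoenolpyruvate carboxykinase, changed by -1.08, GPT2, a mitochondrial alanine transaminase, by -1.05 and MTHFD2, of the mitochondrial folate path, by -0.81. In these 6 genes every DZNep library was below every PBS library, as in every gene that fell.

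Of 22 cytosolic aminoacyl-tRNA synthetases, which load amino acids onto tRNA, 9 fell and 0 rose (median -0.29; 9, 7, 8 and 6 fell with each library left out). WARS, the tryptophan enzyme, had 979 and 752 with PBS and 333 and 370 with DZNep. GARS, the glycine enzyme, had 1280 and 1280 with PBS and 620 and 628 with DZNep. IARS, the isoleucine enzyme, had 2168 and 1903 with PBS and 1056 and 1172 with DZNep. AARS, for alanine, had 680 and 488 with PBS and 266 and 256 with DZNep, and its limma adjusted p of 0.00342 rose to 0.0504 without DZNep replicate 2. TARS and MARS, for threonine and methionine, changed by -0.78 and -0.67. Of 15 mitochondrial synthetases 0 fell and 2 rose, but with each library left out 1, 0, 0 and 0 rose, and their median was 0.12.

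Amino acid transporters showed the same direction: 8 of 20 fell and 2 rose (median -0.32; 8, 7, 4 and 4 fell with each library left out). SLC1A5, the glutamine transporter ASCT2, had 1824 and 1747 with PBS and 538 and 652 with DZNep (log2 -1.59 ± 0.11, SE, limma adjusted p = 4.02e-05). SLC38A2, a sodium-coupled neutral amino acid transporter, had 1323 and 1442 with PBS and 697 and 609 with DZNep. SLC7A11, the cystine-glutamate exchanger, had 324 and 390 with PBS and 186 and 203 with DZNep. SLC1A4 had 242 and 217 with PBS and 130 and 115 with DZNep. All 4 were lower in both DZNep libraries with no overlap, as was every gene that fell.

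Some regulators and feedback genes of the stress response fell as well: 12 of 28, against 2 that rose, with a median of -0.31 and with 6, 9, 6 and 4 lower when each library was left out. TRIB3, a pseudokinase that restrains ATF4, had 506 and 383 with PBS and 164 and 177 with DZNep. DDIT3, the transcription factor CHOP, had 82 and 80 with PBS and 28 and 32 with DZNep. VLDLR, a lipoprotein receptor, had 147 and 139 with PBS and 68 and 72 with DZNep. ADM2, a hormone of the calcitonin family, had 84 and 68 with PBS and 22 and 27 with DZNep. CHAC1, which degrades glutathione, fell furthest with 125 and 102 with PBS and 16 and 28 with DZNep (log2 -2.36 ± 0.49, SE, limma adjusted p = 0.0121); its adjusted p was 0.0766 without PBS replicate 1, 0.0515 without PBS replicate 2, 0.115 without DZNep replicate 1 and 0.0541 without DZNep replicate 2. Among the 12 that fell ATF4 itself changed least, with 766 and 718 with PBS and 596 and 596 with DZNep (log2 -0.31 ± 0.08, SE, limma adjusted p = 0.0295), and its call was lost in several fits, with adjusted p-values of 0.103 without PBS replicate 1, 0.0977 without DZNep replicate 1, 0.106 without DZNep replicate 2, 0.0572 without VC replicate 1 and 0.057 without VC replicate 2.

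The sequences next to the starts of 4 of these genes are shown because they hold the letters TGATGNAA, the composite C/EBP and ATF element that ATF4 binds in textbook examples. The search read both strands of the 250 bases before and 50 bases after each gene's start in RefSeq (GRCh38.p14), where 7882 of the 9513 tested genes were matched, and no overlap with CCAAT was considered. Sequences run 5′ to 3′ on the gene's strand, and capitals mark the match on either strand, so that TTNCATCA is the reverse complement.
ASNS: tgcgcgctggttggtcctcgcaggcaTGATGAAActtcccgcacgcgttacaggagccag
IARS: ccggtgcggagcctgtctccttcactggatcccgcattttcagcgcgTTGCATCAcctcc
AARS: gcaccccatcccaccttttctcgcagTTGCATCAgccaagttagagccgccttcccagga
CHAC1: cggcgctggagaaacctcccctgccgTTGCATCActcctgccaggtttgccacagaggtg
They lie at chr7:97872443-97872502 (minus strand) for ASNS, chr9:92293698-92293757 (minus strand) for IARS, chr16:70289660-70289719 (minus strand) for AARS and chr15:40953236-40953295 (plus strand) for CHAC1. The lists of synthesis enzymes and regulators were drawn up around ATF4 and the stress response. A higher share of matches in them was therefore partly built in. Among the 4 lists of synthesis enzymes, regulators, cytosolic synthetases and transporters, 16 of 77 matched promoters (20.8%) held the letters. They were in 10 of the 32 whose genes fell (31.3%) and in 6 of the other 45 (13.3%). Over all genes tested the share was 1.67%, over all genes that fell 3.98% (20 of 502), over genes that rose 2.16% (11 of 510) and over all 35116 promoters of the RefSeq set 3.62%. A match is a description of letters and says nothing of binding.

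Chaperones moved in both directions. Of 25 genes of ER folding 6 rose and 3 fell (median -0.01); with each library left out 3, 5, 4 and 2 rose and 2, 3, 2 and 2 fell. Those that rose included the disulphide isomerases P4HB (2724 and 2168 with PBS and 4264 and 4264 with DZNep) and PDIA3 (571 and 680 with PBS and 944 and 944 with DZNep). Those that fell included EDEM1 (364 and 424 with PBS and 212 and 232 with DZNep) and HERPUD1 (170 and 156 with PBS and 88 and 96 with DZNep), both of ER-associated degradation. In the cytosolic heat shock list 3 of 19 rose and 2 fell (3, 3, 4 and 3 called, and 3 without VC replicate 1, 3 without VC replicate 2, 3 without VC with DZNep replicate 1 and 3 without VC with DZNep replicate 2). HSPH1, a co-chaperone of the heat shock cognate proteins, had 210 and 209 with PBS and 370 and 374 with DZNep. HSPA8, the constitutive heat shock cognate protein, had 784 and 784 with PBS and 1100 and 1216 with DZNep. HSPD1, the mitochondrial chaperonin, had 1826 and 1826 with PBS and 1216 and 1216 with DZNep and was among those that fell. The other that fell was HSPA9, also a mitochondrial chaperone, so no cytosolic member of this list fell. Of 34 proteasome subunits 2 rose and 2 fell, a share of 11.8% called that is near the 13.1% of all genes (2, 1, 0 and 2 called, and 1 without VC replicate 1, 1 without VC replicate 2, 2 without VC with DZNep replicate 1 and 2 without VC with DZNep replicate 2).

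Some genes of the G1 phase and of DNA replication fell, and none of these lists' members rose. Of 47 replication genes 10 fell (median -0.24; 5, 9, 6 and 4 with each library left out). PRIM1, the primase subunit, had 168 and 147 with PBS and 66 and 56 with DZNep (log2 -1.36 ± 0.21, SE, limma adjusted p = 0.00328). PCNA, the sliding clamp, had 528 and 637 with PBS and 320 and 312 with DZNep. CDT1, a licensing factor, had 346 and 322 with PBS and 206 and 200 with DZNep. Of 29 genes of G1 cyclins, their kinases and inhibitors and the RB-E2F system 8 fell (median -0.42; 3, 3, 3 and 2 with each library left out). CCND3, cyclin D3, had 420 and 335 with PBS and 158 and 138 with DZNep. E2F2 had 99 and 90 with PBS and 47 and 41 with DZNep. Both differ between groups by far more than between replicates, while several others of the list lost their call when 1 library was omitted.

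Nucleotide synthesis was split: 5 of 27 genes fell and 3 rose, and with each library left out 5, 4, 2 and 3 fell and 3, 0, 1 and 0 rose. RRM2, the regulated subunit of ribonucleotide reductase, had 233 and 237 with PBS and 104 and 108 with DZNep. GMPS, the last enzyme of GMP synthesis, had 416 and 355 with PBS and 177 and 188 with DZNep. Mitotic genes were also split, 6 of 47 falling and 4 rising; with each library left out 5, 2, 3 and 1 (and 3 without VC replicate 1 and 3 without VC replicate 2) fell and 2, 4, 1 and 2 rose. AURKB, the Aurora kinase of the chromosomal passenger complex, had 98 and 112 with PBS and 52 and 49 with DZNep. NCAPG, a condensin subunit, had 164 and 175 with PBS and 108 and 106 with DZNep (limma adjusted p = 0.0104, or 0.0535 without PBS replicate 2, 0.0593 without DZNep replicate 1 and 0.0711 without DZNep replicate 2). CENPF, given above, moved the other way. In the DNA repair list 3 of 36 rose and 3 fell (3, 6, 4 and 2 called). PARP1, which senses strand breaks, had 1215 and 1324 with PBS and 1826 and 1749 with DZNep. FANCI, of the Fanconi anaemia pathway, had 571 and 482 with PBS and 274 and 255 with DZNep. The growth arrest list, which holds targets of p53, had 5 of 22 fall and none rise (4, 4, 5 and 1 with each library left out), led by GADD45A with 93 and 100 with PBS and 27 and 26 with DZNep. HL60 cells are known to lack p53, and CDKN1A is not analysed here.

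Most canonical histone genes rose. Their transcripts normally end in a stem-loop without a poly(A) tail, and a few also make polyadenylated forms. Of 8 tested 6 rose and 0 fell, with a median of 1.39, but most had low values and with each library left out 2, 3, 2 and 2 rose. HIST1H4I, an H4 gene, had 14 and 14 with PBS and 52 and 67 with DZNep (log2 2.00 ± 0.28, SE, limma adjusted p = 0.0019). HIST1H2BK, an H2B gene, had 56 and 46 with PBS and 127 and 112 with DZNep (log2 1.22 ± 0.17, SE, adjusted p = 0.00188). In the list of histone variants, linker histone H1 and histone chaperones 3 of 14 fell and none rose (2, 2, 2 and 2 with each library left out). H2AFX, the variant phosphorylated at DNA breaks, had 264 and 280 with PBS and 169 and 180 with DZNep. The linker histone gene HIST1H1C was counted with the canonical histones instead, and is among the 6 that rose there.
The start regions of both histone genes are printed because these genes rose while 10 replication genes fell, and both kinds often carry a CCAAT box, the element bound by NF-Y. Capitals mark CCAAT on the gene's strand.
HIST1H2BK: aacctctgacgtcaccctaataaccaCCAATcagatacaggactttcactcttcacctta
HIST1H4I: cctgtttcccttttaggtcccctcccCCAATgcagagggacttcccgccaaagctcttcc
They lie at chr6:27146904-27146963 (minus strand) for HIST1H2BK and chr6:27139164-27139223 (plus strand) for HIST1H4I. On either strand CCAAT was found in 8 of 8 histone promoters and in 24 of 41 replication promoters (58.5%), against 37.4% of those of all genes tested and 34.6% of the whole RefSeq set; it was in 36.3% of the promoters of genes that fell and 35.1% of those that rose.

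SETD2 apart, most chromatin regulators were not called. The share called was 13.5% of histone and arginine methyltransferases and 12.5% of DNA methylation genes, against 13.1% of all genes. AHCY, the target of DZNep, had 752 and 686 with PBS and 752 and 680 with DZNep and was not called (log2 -0.01 ± 0.11, SE, limma adjusted p = 0.982). EZH2 had 212 and 232 with PBS and 160 and 106 with DZNep, a log2 change of -0.76 ± 0.17 (SE, limma adjusted p = 0.0165), and the call was lost in several fits, with adjusted p-values of 0.0533 without PBS replicate 1, 0.0857 without PBS replicate 2 and 0.093 without DZNep replicate 2. Its partners EED, with 52 and 41 with PBS and 44 and 40 with DZNep, and SUZ12, with 310 and 450 with PBS and 342 and 355 with DZNep, were not called. These are RNA values and do not measure EZH2 protein or histone methylation. Over the 26 Polycomb genes 2 rose and 2 fell, 15.4% against 13.1% of all genes (2, 1, 1 and 1 called). Of 37 histone and arginine methyltransferases 4 rose and 1 fell, and in no leave-one-out fit with a PBS or DZNep library omitted did more than SETD2 rise.

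Of 20 histone demethylases 1 fell (0, 3, 0 and 0 called), and of 25 SWI/SNF and chromodomain remodelers none was called by limma, 9 having an unadjusted p under 0.05 (28.6% of all genes had one). Of 16 DNA methylation genes 2 fell (1, 2, 2 and 1 called), among them DNMT1, the maintenance methyltransferase, with 1548 and 1324 with PBS and 772 and 884 with DZNep (log2 -0.79 ± 0.11, SE, limma adjusted p = 0.00168). CBX5, heterochromatin protein 1 alpha, had 943 and 872 with PBS and 351 and 387 with DZNep and a change of -1.30. TXNIP, reported to respond to DZNep in other cells, had 571 and 560 with PBS and 506 and 476 with DZNep and was not called. The direction of earlier reports was not compared here, for TXNIP or for CDKN1B, also reported to respond. CDKN1B had 132 and 152 with PBS and 74 and 100 with DZNep, lower with DZNep, and narrowly missed the threshold (limma adjusted p = 0.0512). It was called in 6 of 17 alternatives, with adjusted p-values from 0.0229 with a replicate block to 0.284 without DZNep replicate 1. In the whole list of 11 genes linked to DZNep in earlier work, 2 fell and none rose (1, 1, 2 and 1 called); FBXO32, HOXA9 and MEIS1 are not analysed here.

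RNA methyltransferases and their partners rose more often than they fell: 9 of 40 rose and 0 fell (median 0.26), but with each library left out 7, 4, 2 and 2 (and 5 without VC replicate 1 and 5 without VC replicate 2) rose. ZC3H13, a component of the m6A writer complex, had 698 and 718 with PBS and 1099 and 1100 with DZNep (log2 0.63 ± 0.10, SE, limma adjusted p = 0.00265) and was called in every fit. In the methionine cycle and polyamine list 1 of 20 genes rose and none fell, a share of 5% (0, 1, 0 and 0 called, and 0 without VC replicate 1, 0 without VC replicate 2, 0 without VC with DZNep replicate 1 and 0 without VC with DZNep replicate 2). MAT2A, which makes S-adenosylmethionine, had 620 and 638 with PBS and 566 and 560 with DZNep and was not called.

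Most of the tested genes of eosinophils, basophils and mast cells rose and none fell. Of 13 tested, out of 30 listed, 9 rose and 0 fell, with a median of 1.00; with each library left out 6, 7, 7 and 4 rose. Beside CLC, RNASE2 and CPA3, the list held ALOX5AP, the activating protein of leukotriene synthesis, with 305 and 276 with PBS and 596 and 564 with DZNep. The summed value of the 13 genes was 1951 and 1802 with PBS and 2981 and 3300 with DZNep. GATA2, a transcription factor of mast cell and basophil precursors, had 576 and 456 with PBS and 637 and 844 with DZNep and missed the threshold (limma adjusted p = 0.0615). CEBPE, needed for granule formation, had 303 and 296 with PBS and 298 and 306 with DZNep. EPX, PRG2 and IL5RA, which define mature eosinophils, are not analysed here, and the part of a change in cell makeup was not tested.

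In the primary granule list 7 of 15 rose and 1 fell (with each library left out 8, 7, 6 and 6 rose). SERPINB10, a serpin of bone marrow, had 166 and 218 with PBS and 374 and 377 with DZNep. HGF, hepatocyte growth factor, had 109 and 88 with PBS and 196 and 246 with DZNep. The 7 include P4HB and CALR, which were also counted as rising in the ER folding list. CTSC, another of the 7, and CTSG were also counted in the lysosome list. CTSG, given above, was the member that fell, with a limma adjusted p of 0.0218 and of 0.0948 without PBS replicate 1, 0.0654 without PBS replicate 2, 0.101 without DZNep replicate 1, 0.0507 without VC replicate 1 and 0.0511 without VC replicate 2. Of 7 monocyte and macrophage genes tested, out of 27 listed, 5 rose and none fell, with summed values of 1047 and 1015 with PBS and 1480 and 1455 with DZNep, and 2, 2, 2 and 2 rose with each library left out. Secondary granule genes were mostly unmeasured, 7 of 24 (3, 2, 1 and 2 called). The median of those 7 was 0.41, with 2 that rose and 1 that fell. CEACAM6, a granulocyte adhesion molecule, had 4 and 4 with PBS and 34 and 20 with DZNep and rose (limma adjusted p = 0.00438, or 0.0514 without DZNep replicate 1). CHI3L1, a chitinase-like glycoprotein, had 110 and 102 with PBS and 162 and 154 with DZNep and rose (limma adjusted p = 0.0121, or 0.0553 without PBS replicate 2, 0.078 without DZNep replicate 1 and 0.0609 without DZNep replicate 2). S100P, a calcium-binding protein, had 182 and 172 with PBS and 90 and 108 with DZNep and was the member that fell. In the NADPH oxidase and calprotectin list 3 of 12 rose, with CYBB and S100A9, and 1 fell, S100A11, with 314 and 346 with PBS and 194 and 212 with DZNep.

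Surface receptors moved in both directions. Among 22 pattern recognition receptors 3 rose, TLR2 furthest, and 3 fell, CLEC7A furthest. TLR6, which pairs with TLR2, had 62 and 58 with PBS and 18 and 26 with DZNep. Of 27 growth factor and cytokine receptors 6 fell and 4 rose, and with each library left out 5, 4, 4 and 4 fell and 2, 2, 2 and 0 rose. CSF3R, the G-CSF receptor of granulocytes, had 436 and 394 with PBS and 220 and 201 with DZNep (log2 -0.98 ± 0.10, SE, limma adjusted p = 0.000403). IL6R had 362 and 432 with PBS and 246 and 258 with DZNep. IL17RA had 660 and 652 with PBS and 416 and 463 with DZNep and INSR, the insulin receptor, 135 and 116 with PBS and 50 and 69 with DZNep. Of 24 adhesion genes 6 rose and 5 fell, with 6, 5, 5 and 3 and 3, 5, 2 and 2 when each library was left out. ITGA4, the alpha chain of VLA-4, had 670 and 718 with PBS and 1172 and 1280 with DZNep. ITGA2B, the platelet integrin chain, had 450 and 374 with PBS and 718 and 620 with DZNep. CD4, also expressed by myeloid cells, had 582 and 620 with PBS and 943 and 1032 with DZNep.

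Haematopoietic transcription factors were mostly not called: 4 of 36 rose and 1 fell, 13.9% against 13.1% of all genes (5, 6, 4 and 3 called). MYB, a factor of immature progenitors, had 670 and 718 with PBS and 1056 and 1099 with DZNep (log2 0.63 ± 0.09, SE, limma adjusted p = 0.00244). RUNX2 had 202 and 214 with PBS and 358 and 436 with DZNep. MYC, which is amplified in HL60, had 815 and 680 with PBS and 1057 and 1075 with DZNep and a limma adjusted p of 0.00652, or 0.0569 without DZNep replicate 2. CEBPA, the factor of granulocyte commitment, had 450 and 440 with PBS and 468 and 489 with DZNep and was not called.

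Some immediate early genes fell and none rose. These are genes switched on within minutes of a stimulus, with the AP-1 factors of the FOS and JUN families at their centre. Of 22 tested 9 fell and none rose, with a median of -0.49; 4, 6, 4 and 6 fell with each library left out. JUN had 140 and 129 with PBS and 34 and 36 with DZNep (log2 -1.91 ± 0.19, SE, limma adjusted p = 0.000306). KLF10, a TGF-beta inducible repressor, had 118 and 116 with PBS and 48 and 40 with DZNep. TSC22D3, the glucocorticoid-induced leucine zipper, had 88 and 62 with PBS and 16 and 22 with DZNep. In all 3 the higher DZNep value was more than 2-fold under the lower PBS value. Of 22 NF-kB and inflammatory genes 4 fell and 1 rose (1, 4, 2 and 1 fell with each library left out), with NFKB2, the p100 precursor, at 100 and 90 with PBS and 30 and 41 with DZNep. Of 18 interferon-stimulated genes 2 rose and none fell (1, 1, 1 and 1 called, and 1 without VC replicate 1 and 1 without VC replicate 2), SAMD9 with 107 and 130 with PBS and 204 and 242 with DZNep, and of 4 antigen presentation genes none was called by limma, with 0 at an unadjusted p under 0.05.

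Of 36 genes of the BCL2 family, caspases and death receptors 5 fell and 1 rose, 16.7% called against 13.1% of all genes. Fewer fell in each fit with a PBS or DZNep library left out. PMAIP1, BBC3 and TNFRSF10B, which fell, were also counted in the growth arrest list. BMF, a BH3-only promoter of apoptosis, had 137 and 148 with PBS and 82 and 74 with DZNep and fell. MCL1, a survival factor, had 432 and 450 with PBS and 440 and 442 with DZNep and was not called. MAPK3, the kinase ERK1, had 125 and 100 with PBS and 59 and 58 with DZNep and was among 4 of 50 dual-specificity phosphatase and MAP kinase genes that fell, with none that rose (2, 4, 1 and 3 called).

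In central metabolism single enzymes moved strongly while their pathways were split. Of 30 genes of glycolysis and the pentose phosphate path 5 rose and 4 fell. TKT, transketolase, had 2726 and 2170 with PBS and 1032 and 1075 with DZNep (log2 -1.21 ± 0.10, SE, limma adjusted p = 0.000108). ENO1, enolase, had 2168 and 2458 with PBS and 3648 and 3648 with DZNep. SLC2A3, the glucose transporter GLUT3, had 324 and 313 with PBS and 183 and 198 with DZNep. In the TCA cycle list CS, citrate synthase, had 1014 and 962 with PBS and 686 and 643 with DZNep and ME1, malic enzyme, 122 and 125 with PBS and 61 and 60 with DZNep; 3 of 27 fell and 2 rose (4, 5, 2 and 3 called). Nuclear genes of oxidative phosphorylation had 7 of 75 rise and 4 fall, 14.7% against 13.1% (3, 1, 1 and 3 called, and 4 without VC replicate 1, 5 without VC replicate 2, 7 without VC with DZNep replicate 1 and 7 without VC with DZNep replicate 2), and of 13 mitochondrially encoded genes 3 rose, with 0, 4, 0 and 0 when each library was left out.

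Sterol and fatty acid genes fell more often than they rose. Of 25 genes of cholesterol synthesis and uptake 7 fell and none rose (median -0.32; 4, 3, 3 and 2 fell with each library left out). HMGCS1, the cytosolic synthase of the mevalonate path, had 296 and 334 with PBS and 203 and 222 with DZNep (log2 -0.56 ± 0.11, SE, limma adjusted p = 0.00931), and its adjusted p was 0.0527 without PBS replicate 2 and 0.0722 without DZNep replicate 1. Of 22 fatty acid genes 6 fell and 2 rose (3, 3, 3 and 1 fell with each library left out). FADS1, the delta-5 desaturase, had 80 and 76 with PBS and 32 and 32 with DZNep. ACSL5, an acyl-CoA synthetase, had 136 and 136 with PBS and 248 and 222 with DZNep. Of 11 eicosanoid genes 4 rose and 1 fell, with 3, 4, 3 and 2 rising when each library was left out. LTB4R, the leukotriene B4 receptor, had 72 and 52 with PBS and 190 and 134 with DZNep. PTGS1, the constitutive cyclooxygenase, had 328 and 280 with PBS and 177 and 198 with DZNep.

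Antioxidant and iron genes gave a few clear calls. GCLC, the catalytic subunit that starts glutathione synthesis, had 100 and 116 with PBS and 196 and 187 with DZNep; in its list of 26 3 rose and 3 fell. TFRC, the transferrin receptor, had 463 and 432 with PBS and 828 and 918 with DZNep (log2 0.96 ± 0.10, SE, limma adjusted p = 0.000381). NCOA4, which delivers ferritin to the lysosome, had 872 and 944 with PBS and 1548 and 1826 with DZNep. Of 19 iron and haem genes 3 rose and none fell, 15.8% called against 13.1% of all genes, and their median was -0.13. In the lysosome list 6 of 31 rose and 1 fell, with 5, 2, 1 and 4 rising when each library was left out. CTSA, cathepsin A, had 120 and 112 with PBS and 217 and 200 with DZNep. Hypoxia genes had a median of 0.12, and 11.1% of them were called, against 13.1% of all genes. VEGFA led the hypoxia list, in which 2 of 18 fell (2, 1, 1 and 2 called, and 1 without VC replicate 1 and 1 without VC replicate 2), and of 26 autophagy genes 1 rose and 1 fell (1, 2, 1 and 1 called, and 1 without VC replicate 1, 1 without VC replicate 2, 1 without VC with DZNep replicate 1 and 1 without VC with DZNep replicate 2).

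Ribosome assembly factors rose more often than they fell. Of 52 genes of ribosome biogenesis and RNA polymerase I 11 rose and 1 fell with a median of 0.21; with each library left out 6, 9, 6 and 3 (and 7 without VC replicate 1 and 7 without VC replicate 2) rose. UTP20, of the small subunit processome, had 80 and 118 with PBS and 212 and 198 with DZNep. RRP1B had 392 and 420 with PBS and 652 and 728 with DZNep. RRP12 had 181 and 168 with PBS and 263 and 259 with DZNep. The member that fell was NPM1, nucleophosmin, with 4795 and 4795 with PBS and 2458 and 2724 with DZNep (log2 -0.89 ± 0.07, SE, limma adjusted p = 0.000108). Of 72 mitochondrial ribosomal proteins 8 rose and none fell with a median of 0.20; with each library left out 5, 2, 1 and 3 (and 4 without VC replicate 1 and 5 without VC replicate 2) rose. MRPS11 had 54 and 54 with PBS and 100 and 98 with DZNep. Of 80 cytosolic ribosomal proteins 5 fell and 1 rose, 7.5% against 13.1% of all genes (3, 9, 7 and 3 called). RPL28 had 4264 and 4264 with PBS and 2724 and 2458 with DZNep.

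Translation factors had 5 of 60 members fall and 2 rise (4, 5, 3 and 3 called). EIF2A, an alternative carrier of initiator tRNA, had 660 and 670 with PBS and 290 and 284 with DZNep (log2 -1.21 ± 0.09, SE, limma adjusted p = 6.48e-05). EIF3A, the largest eIF3 subunit, had 4264 and 4795 with PBS and 2021 and 2458 with DZNep. This list was drawn by symbol, and 11.7% of it was called against 13.1% of all genes. The 2 that rose, the eIF2 kinase EIF2AK1 and the eEF2 methyltransferase EEF2KMT, act on translation factors and are not factors themselves. The same holds for EIF4EBP1, which fell. Of 83 splicing factors 6 fell and 4 rose (4, 6, 4 and 4 called, and 6 without VC replicate 1 and 6 without VC replicate 2). SNRPA, a U1 snRNP protein, had 328 and 284 with PBS and 139 and 158 with DZNep. SNRPB2, a U2 snRNP protein, had 100 and 102 with PBS and 176 and 184 with DZNep. HNRNPH3 had 282 and 301 with PBS and 450 and 468 with DZNep. Of 43 DEAD and DEAH box helicases 4 rose, DHX15 with 752 and 814 with PBS and 1122 and 1122 with DZNep. A list of 74 genes, drawn by symbol for RNA polymerase II, its general factors and Mediator, had 1 that fell and none that rose. This was the smallest share of calls among the larger lists, at 1.35%. The gene that fell, TAF1D, encodes a factor of RNA polymerase I, so no gene of RNA polymerase II or Mediator was called. The counts of both lists moved when 1 library was left out.

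Nuclear transport was marked by IPO5 and RANBP2, which moved in opposite directions. Of 27 import and export receptors 4 fell and none rose (4, 3, 3 and 3 with each library left out), and of 28 nucleoporins 4 rose and 1 fell (2, 5, 1 and 1 called, and 3 without VC replicate 1 and 3 without VC replicate 2). In the cytoskeleton KIF21B, a kinesin, fell from 3112 and 2458 to 1099 and 943, among 2 of 45 motor genes that fell and 4 that rose (6, 2, 2 and 1 called, and 3 without VC with DZNep replicate 1 and 3 without VC with DZNep replicate 2). Of 42 tubulin and actin genes 4 rose and 1 fell (3, 7, 4 and 3 called): ACTB, beta-actin, had 7550 and 7550 with PBS and 10345 and 10345 with DZNep, where 10345 is the highest value the scale holds. CFL1, cofilin, had 1903 and 1826 with PBS and 3112 and 2724 with DZNep. ACTL8, an actin-like gene usually found in testis, had 24 and 21 with PBS and 82 and 84 with DZNep. ARHGEF40, a guanine nucleotide exchange factor, had 88 and 71 with PBS and 32 and 30 with DZNep. RAB7B, of late endosomes, had 206 and 169 with PBS and 364 and 348 with DZNep and was 1 of 3 of 81 small GTPase genes that rose, with none that fell (2, 3, 2 and 1 called).

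Families defined by symbol alone differed in their share of calls, and ZNF genes were well under the background. Of 273 ZNF zinc finger genes 8 rose and 4 fell, 4.4% called against 13.1% (5, 11, 3 and 6 called). ZNF107 had 56 and 47 with PBS and 105 and 112 with DZNep and ZNF480 94 and 95 with PBS and 189 and 152 with DZNep. Solute carriers had 13 of 168 rise and 13 fall (15.5%) (22, 23, 13 and 9 called), and 7 of the 10 that fell furthest carry amino acids or taurine. TMEM genes had 5 of 123 rise and 5 fall (8.13%) (5, 5, 4 and 5 called, and 5 without VC replicate 1, 6 without VC replicate 2, 6 without VC with DZNep replicate 1 and 6 without VC with DZNep replicate 2), with TMEM160 at 28 and 28 with PBS and 66 and 84 with DZNep and TMEM255B at 128 and 114 with PBS and 226 and 217 with DZNep. Of 52 WD repeat genes 7 rose and 2 fell (17.3%), but 4, 4, 2 and 0 (and 4 without VC with DZNep replicate 1 and 4 without VC with DZNep replicate 2) rose with each library left out. Ubiquitin-specific proteases had 1 of 42 rise and 4 fall (2, 3, 2 and 0 called, and 2 without VC replicate 1 and 2 without VC replicate 2), F-box genes 2 of 45 rise and 2 fall (5, 4, 2 and 2 called), TRIM ligases 2 of 26 fall (1, 2, 1 and 1 called) and ABC transporters 1 of 16 rise (0, 0, 0 and 0 called). CD antigens had 4 of 31 rise and 2 fall (19.4%) (4, 3, 2 and 2 called). Of 27 interleukins, chemokines and their receptors 4 rose and 4 fell, the largest share among these families at 29.6% (4, 6, 4 and 2 called). CDC genes had 1 of 31 rise and 1 fall (1, 1, 0 and 1 called, and 1 without VC replicate 1 and 1 without VC replicate 2). Of 31 acetyltransferases, deacetylases and acetyl-lysine readers 2 rose and 1 fell (1, 2, 1 and 0 called).

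The calls were not spread evenly over gene properties. With genes split into 5 equal classes by mean value, the share that rose went from 3.0% in the lowest class to 12.2% in the highest. The share that fell went from 3.15% to 12.6%, so genes with low values were called less often in both directions. By GC content of the longest transcript, the share that fell was 3.63%, 5.36%, 5.47%, 8.20% and 10.5% from the lowest class (30.9% to 40.4% GC) to the highest (57.7% to 73.5%). Shares that rose showed no such order, at 6.73%, 6.62%, 7.62%, 6.41% and 4.73%. Shares that fell lay between 6.15% and 7.41% over classes of gene span, and between 5.68% and 7.93% over classes of exon length. On chromosome 13, 29 of 184 genes rose (15.8%, against 6.42% of all) and 8 fell. Among the nuclear chromosomes the next highest share that rose was 10.2% on chromosome 21 (9 of 88), and the largest share that fell was 9.67% on chromosome 19 (65 of 672). These are descriptions over genes, which are not replicates.

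**Figure D4:**
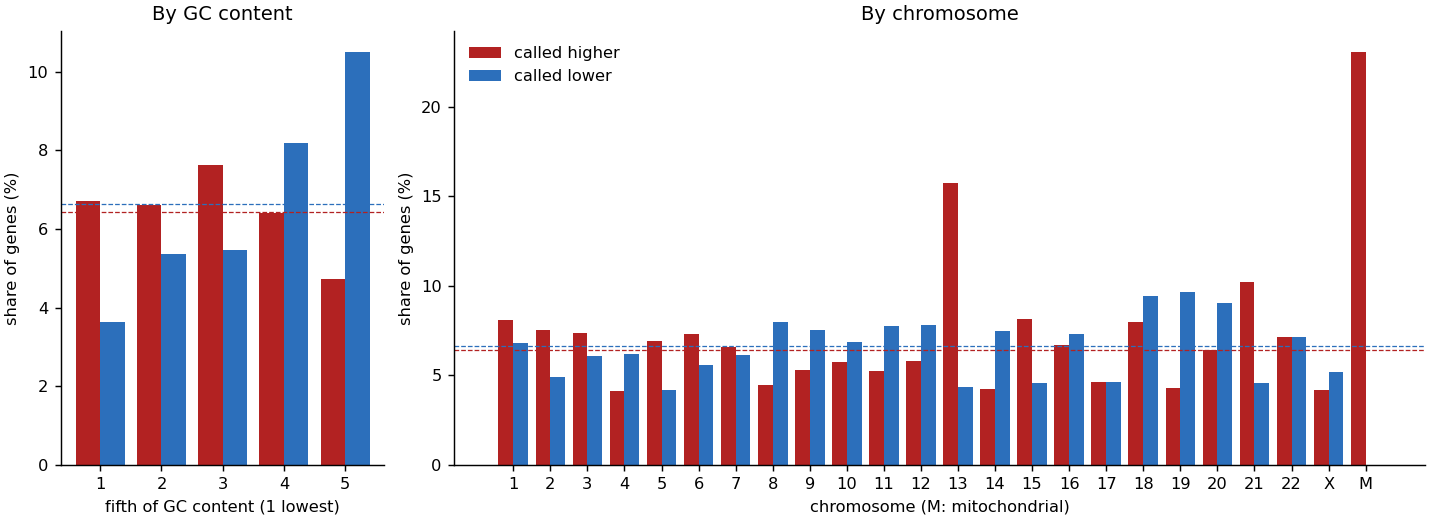
Share of tested genes called higher (red) and lower (blue) with DZNep, in percent, by class of transcript GC content (left, 5 equal classes) and by chromosome (right, M being the mitochondrial genome); dashed lines are the shares over all genes. The share called lower rises from 3.63% to 10.5% with GC content, and chromosome 13 has 15.8% called higher.

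The DZNep effect was also measured in cells that received VC in both groups, by 4 libraries that share none with the comparison above. There 1429 genes were called (15.0%), 655 higher (6.89%) and 774 lower (8.14%). That count was 501 without VC replicate 1, 587 without VC replicate 2, 736 without VC with DZNep replicate 1 and 575 without VC with DZNep replicate 2. Of the 611 genes that rose with DZNep alone 578 (94.6%) changed in the same direction with VC present, and of the 631 that fell 612 (97.0%), against 69.5% of the 8271 genes not called. In both settings 322 genes rose, 52.7% of the first list and 49.2% of the second, and 396 fell, 62.8% and 51.2%; none was called in opposite directions. The fits above share an estimate of the spread over all 8 libraries. When each set of 4 libraries was fitted alone, 137 genes rose in both (68.5% of 200 and 27.7% of 494) and 187 fell in both (73.6% of 254 and 32.1% of 583).

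**Figure D5:**
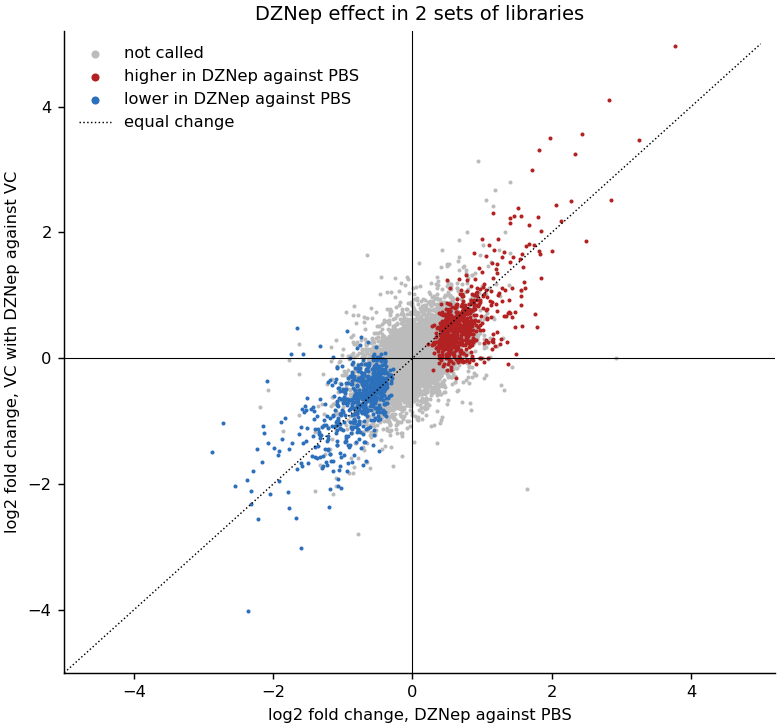
Log2 fold change of each gene with DZNep against PBS (x axis) and with VC and DZNep against VC (y axis), from 2 sets of 4 libraries with none in common. Red genes were called higher and blue genes lower with DZNep alone, grey genes were not called, and the dotted line marks equal change; of the called genes 578 of 611 and 612 of 631 have the same sign in both.

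CLC, SETD2 and IPO5 moved in the same direction with VC present. CLC had values of 13, 30, 660 and 643 in the VC and the VC with DZNep libraries, SETD2 305, 290, 1826 and 1548 and IPO5 4795, 3648, 728 and 686. Their log2 fold changes there were 4.97, 2.50 and -2.56. Other genes gave unlike values side by side: CLEC7A changed by -2.73 without VC and -1.02 with it, and ADM2 by -1.59 and -3.01. The test of the difference itself, the interaction of VC and DZNep in limma, called 2 genes (0.021%), EPRS and BCAT1, and neither of these. It called 1 gene without PBS replicate 2 and 0 without PBS replicate 1 or either DZNep or VC library, and in those 5 fits 494 to 906 genes had an unadjusted p under 0.05. Among the lists, 12 of 21 amino acid synthesis enzymes, 14 of 22 cytosolic synthetases and 9 of 13 eosinophil, basophil and mast cell genes were called in the direction given above when VC was present.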

How the data were processed

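RNA from 8 HL60 libraries, 2 per group, was analysed from 1 deposited table. Per the submitters' processing notes, the tools were DESeq 1.18.1, HTSeq 0.6.0, SAMtools 1.3.1 and HISAT2 2.0.4, on hg38 (GRCh38). Per the file headers the values were normalized with EDASeq, with settings not given in the sources used here. The deposited values were taken as a score, since they are whole numbers after normalization rather than counts: all 8 columns hold the same sorted values and sum to 1988507, so no depth, counting interval or count test applies. The table's control columns were taken as the PBS group. All 9543 genes matched protein-coding genes of GENCODE 29.

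Genes with a mean under 10 over the 8 libraries were dropped (30), and log2(value + 1) of 9513 genes was fitted with limma 3.58.1 in R 4.3.3, with 1 mean per group, all 8 libraries, an intensity trend (4 residual and 6.46 prior degrees of freedom), two-sided tests and Benjamini-Hochberg adjustment over all genes at 0.05. The script was tested on simulated data. The text names the 20 largest changes each way among called genes with a group mean of at least 50, the 10 smallest p-values, the 4 smallest p-values of each of 79 lists and a set of fixed genes, or some of these, and prefers calls that held in every alternative; TLR2 and CPA3 are among the 4 of their lists, and further list members were chosen after their values were seen. The ranking of the largest changes also required both DZNep libraries to lie beyond both PBS libraries. The comparison, lists and genes were chosen with earlier results of these data known. Alternatives were other filters (none, or a mean of 50), pseudocounts (0.5 and 5), rank and median-of-ratios scaling, no trend, a replicate block, the 4 libraries alone and each library left out. Every column of the table was mapped to a sample. Some genes within these rules are not reported here.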

Additional observations from a re-analysis of the deposited data

Results flagged for a closer look

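The difference between the DZNep effect with VC and without it passed the threshold of limma's interaction test in 2 of 9513 genes. EPRS, the glutamyl-prolyl-tRNA synthetase, had 1903 and 2021 with PBS, 1443 and 1377 with DZNep, 2168 and 2168 with VC and 784 and 772 with both, an interaction of -1.0 ± 0.10 on the log2 scale (SE, limma adjusted p = 0.0141). It fell in both settings and further with VC present. BCAT1, the cytosolic branched-chain amino acid transaminase, had 1032 and 1099 with PBS, 1074 and 979 with DZNep, 1032 and 979 with VC and 514 and 489 with both, an interaction of -0.95 ± 0.12 (SE, limma adjusted p = 0.0492). It was not called with DZNep alone. Over the alternatives the limma adjusted p-values of the interaction ranged from 0.00914 to 0.357 for EPRS and from 0.0371 to 0.503 for BCAT1, with the sign kept in every one. No group has the 4 libraries needed for a test of single outlying libraries.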

How the results depend on the processing

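The count of 1242 genes called with DZNep against PBS moved by more than 1.5 times without the intensity trend (739; 350 higher and 389 lower) and when the 4 libraries were fitted alone (454; 200 higher and 254 lower). Leaving out 1 of the 8 libraries gave 439 to 1030 calls, 190 to 484 higher and 249 to 546 lower. The second setting, VC with DZNep against VC, gave 928 calls without the trend and 501 to 1532 with a library left out. The interaction count of 2 became 1 with a filter at a mean of 50, 0 without the trend and 0 to 2 with a library left out. The other filters, pseudocounts and scalings gave counts within 1.5 times. Replicate numbers did not pair the samples: deviations from the group means correlated by 0.07 between PBS and DZNep and by -0.05 to 0.09 over all pairs of groups, and a fit with a replicate block called 1367 genes, 1213 of them shared with the fit without it. Sign was checked in 157 genes, and not in some genes named only as list members, such as HSPA9 and TAF1D. Of the 157, 139 were called with DZNep against PBS, and none of these changed sign in any alternative. The text preferred genes whose call held in every alternative, so this does not describe the 1242 calls as a whole. Among named genes that were not called, 6 (AHCY, BCAT1, CEBPE, EED, MCL1 and SUZ12) changed sign in at least 1. With 2 libraries a group, no read depth and a value scale fixed across libraries, changes common to most genes and small changes of genes with low values are not detectable here.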
